A study of Mus musculus with 12 samples.

Results

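The genes described here are 9 transcripts of the ureteric tip and of the GDNF-RET signal that drives its branching: *Gdnf*, *Ret*, *Gfra1*, *Etv4*, *Etv5*, *Wnt11*, *Spry1*, *Sox8* and *Sox9*. They were chosen by symbol, and their probes were found by matching the RefSeq accession of each non-control array probe to those symbols. The match gave 14 probes, of which 13 were bright enough to be tested. These 13 covered 8 of the 9 genes, out of 12647 genes with a symbol and a tested probe on the array.

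Kidneys were taken at embryonic day 14.5 from *Bdkrb2* null and from *Bdkrb2* wild-type (WT) embryos on a C57BL/6 genetic background. *Bdkrb2* encodes the bradykinin B2 receptor. The dams of both genotypes were *Bdkrb2* heterozygotes that ate food with 5% sodium and were mated to heterozygotes, so both groups shared the gestational high salt, and no group on ordinary food is compared here. How the null allele was made, how many embryos a sample pooled and which litters they came from are not given in the sources used here. Each of the 12 arrays took total RNA of a null and of a WT kidney sample, labelled with different dyes. The null/WT arrays carried null RNA in Cy5 and the WT/null arrays carried it in Cy3. Each orientation had 3 replicates of 2 arrays each, and replicates with the same number lay on the same slide, with 4 arrays per slide. Every value below is a log2 ratio of null over WT unless it is called a level, so a negative value is lower in null kidneys. Where nothing says that replicates came from separate embryos, p-values measure only the spread between these samples.

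RET is a receptor tyrosine kinase of the ureteric bud tip. GDNF, secreted by the surrounding metanephric mesenchyme, binds the co-receptor GFRA1 and activates RET, which signals through the RAS-ERK and PI3K-AKT cascades. In the tip this raises the ETS transcription factor genes *Etv4* and *Etv5* and the secreted factor gene *Wnt11*. SPRY1 restrains the signal, and SOX8 and SOX9 are transcription factors that the tip needs for its response to GDNF. Loss of the signal is known to prevent bud outgrowth or to reduce branching, and excess signal gives supernumerary buds.

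RET-responsive genes are switched on in part by ETS factors, so the upstream sequence of 3 such members is shown. These are 220-base windows from RefSeq (assembly GRCm38.p6), read 5′ to 3′ on the strand of the gene, and they end before the annotated gene start. The windows are chr7:98834862-98835081 (plus strand) for *Wnt11*, chr16:22439601-22439820 (minus strand) for *Etv5* and chr3:37639697-37639916 (plus strand) for *Spry1*. Capitals mark the letters CGGAA on either strand, a narrower pattern than the ETS core GGAA.
Wnt11: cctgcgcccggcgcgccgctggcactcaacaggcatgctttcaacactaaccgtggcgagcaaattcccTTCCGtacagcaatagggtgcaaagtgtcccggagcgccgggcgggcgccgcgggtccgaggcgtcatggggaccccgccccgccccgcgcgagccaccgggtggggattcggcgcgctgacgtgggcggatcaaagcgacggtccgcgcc
Etv5: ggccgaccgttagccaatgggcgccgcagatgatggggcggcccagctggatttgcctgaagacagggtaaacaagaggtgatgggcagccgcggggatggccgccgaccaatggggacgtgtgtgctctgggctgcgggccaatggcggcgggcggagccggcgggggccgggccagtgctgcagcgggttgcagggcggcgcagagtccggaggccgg
Spry1: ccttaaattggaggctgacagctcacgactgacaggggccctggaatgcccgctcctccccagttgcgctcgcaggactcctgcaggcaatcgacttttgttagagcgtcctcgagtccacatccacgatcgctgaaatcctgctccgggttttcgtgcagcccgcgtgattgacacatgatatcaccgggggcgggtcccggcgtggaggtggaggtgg
The *Wnt11* window held 1 match, on the opposite strand, and the *Etv5* and *Spry1* windows held none. The *Spry1* window does hold GGAA, after a T, which this pattern leaves out. In all, 6 of the 9 genes had a window in the table, and 2 of the 6 (*Gfra1* and *Wnt11*) held the letters, against 21.5% of all 32851 windows cut to the same length. The *Gfra1* window, which is not shown, lay inside the annotated gene, downstream of its start. A match is a description of the letters only.

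No member passed the test of null over WT. By limma, 0 of 8 members had an adjusted p under 0.05, where 0.0392% of all 22979 tested probes did. The count was also 0 with the replicate number as a block, a fit that called 295 probes (1.28% of all tested), and 0 on the 3 means of the dye-swap pairs, where 4 probes (0.0174%) passed. An unadjusted p under 0.05 was reached by 2 of 8 members, *Sox8* and *Sox9*, against 7.01% of all tested probes. That count depends on how the pairing is treated: on the pair means it was 0 of 8 (unadjusted p = 0.0892 for *Sox8* and 0.0626 for *Sox9*), against 3.30% of tested probes, and with the replicate number as a block it was 5 of 8 (*Etv4*, *Wnt11*, *Sox9*, *Sox8* and *Gfra1*), against 17.1%. The values and intervals below are those of the unpaired fit, which counts the 2 orientations of a number as separate replicates. If these share RNA, the intervals are too narrow. On the pair means the SE was wider for every member except *Gdnf*. For *Sox8* it was 0.051 against 0.039, and for *Sox9* 0.051 against 0.042. Of the 8 genes, 3 were higher and 5 lower, with a median of -0.06. Over all 12647 tested genes the median was -0.003 and 48.1% were higher. The fitted values ran from -0.13 to 0.11, that is, from 0.917 to 1.08 times the WT level. When arrays were centred on their medians and loess was left out, the median over the tested probes rose from -0.01 to 0.14, and *Gfra1*, *Wnt11*, *Etv4* and *Etv5* turned from below to above 0 (0.07 to 0.13), while relative to that median they stayed below it, at -0.07 to -0.01.

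**Figure D1:**
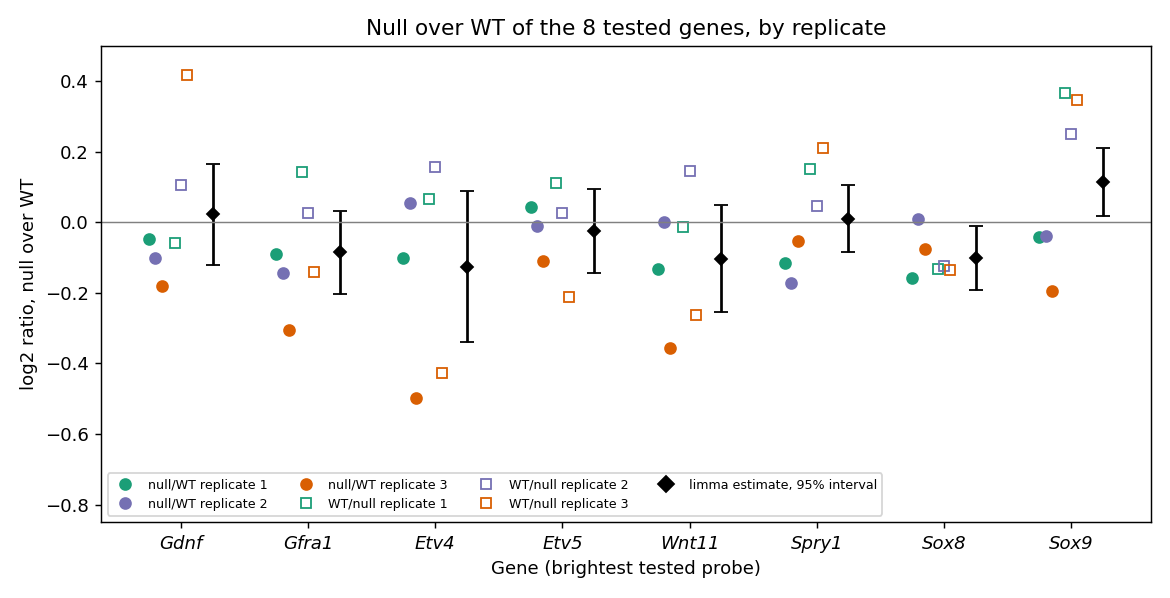
Log2 ratios of null over WT (vertical axis) for the brightest tested probe of each of the 8 genes (horizontal axis). Circles are null/WT replicates, open squares WT/null replicates, colours the replicate numbers, and black diamonds the limma estimates with 95% intervals. The orange points of *Etv4* lie at -0.50 and -0.43, below the other 4, and the circles of *Sox9* lie below 0 while its squares lie above.

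*Gdnf*, the ligand gene, did not pass the test. It stood at -0.05, -0.10 and -0.18 in null/WT replicates 1 to 3 and at -0.06, 0.11 and 0.42 in WT/null replicates 1 to 3. The 0.42 is the highest of the 6 and is the mean of arrays that differed, at 0.80 and 0.03. The fitted value was 0.02 ± 0.06 (SE, n = 6 replicates, 95% interval -0.12 to 0.17, limma adjusted p = 0.908), and it was -0.04 without the array at 0.80.

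The receptor itself could not be measured. The single *Ret* probe (A_51_P324191), printed as 10 spots per array, rose well above background in 1 of the 12 WT channels and in 0 of the 12 null ones. Of its single spots, 8 of 120 were well above background in null (6.67%, exact binomial 95% interval 2.92% to 12.7%) and 7 of 120 in WT (5.83%, 2.38% to 11.7%). These intervals cover counting error only, and spots of one array are not independent. *Ret* was therefore not tested, no fold is given, and no gene is named for likeness to its pattern.

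The co-receptor gene *Gfra1* was well above background in all 24 channels. It stood at -0.09, -0.14 and -0.31 in the null/WT replicates and at 0.14, 0.03 and -0.14 in the WT/null replicates. The lowest value of each orientation is that of replicate 3. The fitted value was -0.09 ± 0.05 (95% interval -0.20 to 0.03, limma adjusted p = 0.723). It was -0.14 without slide 1 and -0.016 without slide 3. Its other probe, A_52_P311022, gave -0.06 ± 0.06, with replicate 3 at -0.40 and 0.22, so the probes differed there in the WT/null orientation.

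Of the ETS factor genes, *Etv4* had the widest spread of all members. It stood at -0.10, 0.05 and -0.50 in the null/WT replicates and at 0.07, 0.16 and -0.43 in the WT/null replicates. On slide 3 it was lower in null in both orientations, and on the others the values lay on both sides of 0 or above it. The fitted value over all 6 was -0.13 ± 0.09 (95% interval -0.34 to 0.09, limma adjusted p = 0.733). It was -0.24 without slide 2 and 0.04 without slide 3. *Etv5*, its close paralogue, stood at 0.04, -0.01 and -0.11 in the null/WT replicates and at 0.11, 0.03 and -0.21 in the WT/null replicates. Replicate 3 was again the lowest of each orientation, and the fitted value was -0.02 ± 0.05 (95% interval -0.14 to 0.09, adjusted p = 0.876). The dimmer *Etv5* probe, A_51_P323579, gave 0.03 ± 0.05 and did not share the low value in WT/null replicate 3, where it stood at 0.21.

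*Wnt11*, whose upstream window is printed above, is expressed in the tip and acts back on the mesenchyme to sustain *Gdnf*. It stood at -0.13, 0.00 and -0.36 in the null/WT replicates and at -0.01, 0.15 and -0.26 in the WT/null replicates. As for *Etv4*, replicate 3 was lowest and replicate 2 highest in both orientations. The fitted value was -0.10 ± 0.07 (95% interval -0.25 to 0.05, limma adjusted p = 0.728). Without slide 2 it was -0.19, and without slide 3 it was 0.001.

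*Spry1*, the feedback inhibitor of RET signalling, stood at -0.12, -0.17 and -0.05 in the null/WT replicates and at 0.15, 0.05 and 0.21 in the WT/null replicates. Its sign followed the dye orientation, although its dye term did not pass (-0.25 ± 0.08, limma adjusted p = 0.0840). The fitted value was 0.01 ± 0.04, with a 95% interval of -0.08 to 0.11 (limma adjusted p = 0.937).

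*Sox8* was lower in null in 5 of 6 replicates. It stood at -0.16, 0.01 and -0.08 in the null/WT replicates and at -0.13, -0.12 and -0.13 in the WT/null replicates. The value of WT/null replicate 3 is the mean of arrays at -0.31 and 0.05, on both of which the null channel was not well above background, and that of WT/null replicate 1 the mean of -0.03 and -0.23. The fitted value was -0.10 ± 0.04 (95% interval -0.19 to -0.01, unadjusted p = 0.0322, limma adjusted p = 0.691). On the means of the dye-swap pairs its unadjusted limma p was 0.0892. All 12 WT channels and 10 of the null channels were well above background for this probe. Its dimmer probe, A_52_P269672, gave -0.08 ± 0.08 with 3 replicates above 0 and 3 below, and its null channel too was not well above background on either array of WT/null replicate 3.

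*Sox9* had the highest fitted value, 0.11 ± 0.04 (95% interval 0.02 to 0.21, unadjusted p = 0.0254, limma adjusted p = 0.675). On the means of the dye-swap pairs its unadjusted limma p was 0.0626. Its ratios separated by dye orientation. It stood at -0.04, -0.04 and -0.19 in the null/WT replicates and at 0.37, 0.25 and 0.35 in the WT/null replicates. The dye term of this probe was -0.41 ± 0.08 (limma adjusted p = 0.0190), one of the 13.5% of tested probes whose dye term passed, and no other member's brightest probe passed that test. The other *Sox9* probes gave 0.03 ± 0.06 (A_51_P451606) and -0.00 ± 0.04 (A_52_P214630), the latter well above background in 7 null and 6 WT channels only.

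Null over WT was also compared among the replicate numbers. A limma F test for a difference of null over WT among the 3 numbers, in a fit with the dye term, had an unadjusted p under 0.05 for 3 of the 8 members, against 18.9% of all tested probes. After adjustment 0 members passed, against 1.48% of tested probes. The means of the 2 orientations were -0.02, 0.11 and -0.46 on numbers 1 to 3 for *Etv4*, a range of 0.57 (F = 29.8, unadjusted p = 0.00102, adjusted p = 0.0573). For *Wnt11* they were -0.07, 0.07 and -0.31 (adjusted p = 0.125), and for *Gfra1* 0.03, -0.06 and -0.22 (adjusted p = 0.259). *Etv4* passed this F test under 3 of 8 alternatives, and under the other 5 its adjusted p ran up to 0.263. It passed when only probes above background on all 12 arrays were tested (adjusted p = 0.0333), where 739 probes passed. With the first of the WT/null replicate 3 arrays left out it passed (adjusted p = 0.0138, and *Wnt11* at 0.0450), where 1548 probes did. With median centring it passed too (0.00358), as did *Spry1* (0.00180), *Sox9* (0.0115) and *Gfra1* (0.0174). There 11447 of the 22979 tested probes passed, and the median of all tested probes was 0.33, -0.07 and 0.18 on numbers 1 to 3. These passes are therefore not particular to the members. This test takes its error from the spread between the 2 orientations of a number. If these share RNA extracts, which the labels do not say, that spread is technical.

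The levels behind these ratios differed between slides in both genotypes. On the log2 intensity scale after normalization across arrays, the mean *Etv4* level on slides 1 to 3 was 11.38, 10.78 and 10.99 in null and 11.40, 10.67 and 11.45 in WT. Both genotypes were thus low on slide 2, whereas on slide 3 WT was near its slide 1 level and null was not. The 4 null channels on slide 3 ran from 10.89 to 11.04 and the 4 WT channels from 11.38 to 11.50, with no overlap. How many of all tested probes separate in this way on slide 3 was not counted, so the gap is not shown to be particular to *Etv4*. The *Wnt11* level was 10.22, 9.97 and 9.91 in null and 10.29, 9.89 and 10.22 in WT, and on slide 3 the 2 genotypes met at the edge, with null up to 10.045 and WT from 10.036. The *Gfra1* level on slide 3, by its brighter probe, ran from 8.98 to 9.07 in null and from 9.14 to 9.34 in WT. Its other probe, A_52_P311022, overlapped there, at 8.65 to 9.15 in null and 8.89 to 9.15 in WT. Channels of one slide may share RNA, and each slide holds 1 replicate number, so slide and sample cannot be told apart.

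**Figure D2:**
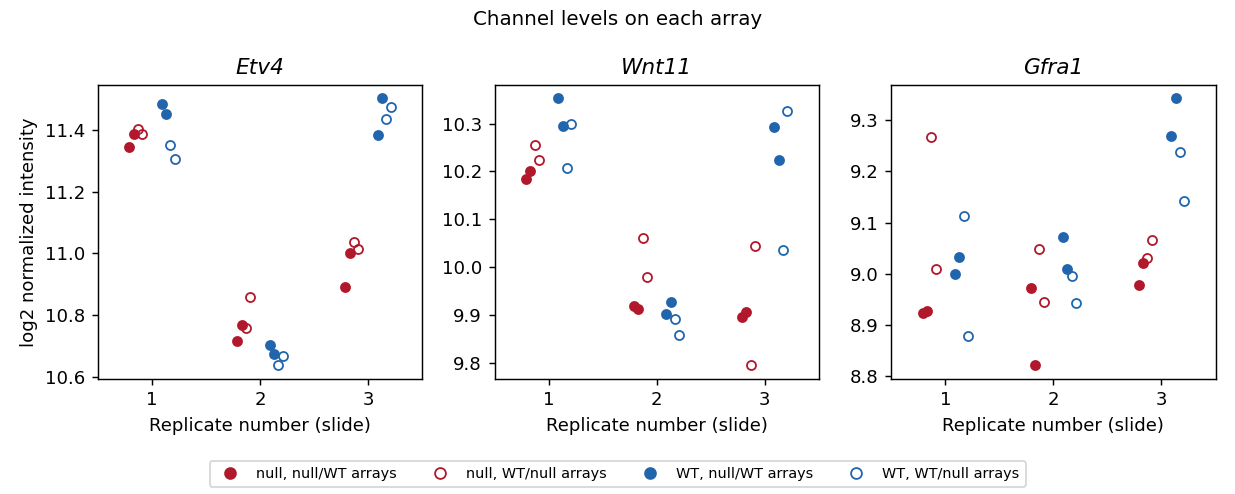
Normalized log2 intensity (vertical axis) of *Etv4*, *Wnt11* and *Gfra1* on each array against replicate number (horizontal axis), in null (red) and WT (blue) channels, with filled points from null/WT and open points from WT/null arrays. On slide 3 the red *Etv4* points end at 11.04 and the blue ones start at 11.38.

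Other transcripts also differed between the replicate numbers. The median of the 8 members was -0.00, 0.00 and -0.13 on numbers 1 to 3, with 5 of 8 below 0 on number 3, where 50.8% of all tested genes were. In whole-kidney RNA, fewer cells of a type and less RNA per cell cannot be told apart. Of 8 markers of ureteric epithelium (*Cdh1*, *Epcam*, *Krt8*, *Krt18*, *Krt19*, *Calb1*, *Wnt7b* and *Wnt9b*), all were tested, and their medians were -0.04, 0.07 and -0.11. Their summed linear level on slide 3 was 78349 to 80347 in null and 79163 to 82255 in WT, so it overlapped. Bright genes weigh most in such sums, and the markers did not move alike. On number 3, 5 of the 8 were below 0, among them *Wnt7b* (-0.26) and *Wnt9b* (-0.22). *Krt19* (0.25), *Epcam* (0.14) and *Krt18* (0.09) were above 0. The 7 cap mesenchyme markers, such as *Six2* and *Cited1*, had medians of 0.01, -0.06 and -0.19, and their summed level was lower in null without overlap on slide 2 (31356 to 33749 against 34111 to 36242 in WT) and on slide 3 (33812 to 38301 against 39666 to 41872), but not on slide 1 (35298 to 37291 against 34785 to 37875). The 5 early nephron markers, such as *Wnt4* and *Jag1*, had medians of -0.00, 0.11 and -0.05, and their sums were higher in null without overlap on slide 2 (9258 to 9423 against 8165 to 9094) and overlapped on the other slides. The 6 stromal markers had medians of 0.19, 0.03 and 0.30, and 5 of the 6 had a fitted value above 0. They did not move alike. *Dcn* stood at 0.41, 0.19 and 0.46 on numbers 1 to 3 and *Lum* at 0.76, 0.28 and 0.43. *Foxd1* stood at -0.01, -0.00 and 0.06, and *Meis1* at 0.05, -0.01 and -0.21. The summed levels of the 6 stromal markers were higher in null without overlap on all 3 slides, at 41291 to 41990 against 34617 to 36011 in WT on slide 1, 51050 to 51829 against 47154 to 49921 on slide 2 and 50717 to 55325 against 40561 to 43218 on slide 3. The marker lists here and below were chosen with earlier results of these data known. How many of all genes separate without overlap was not counted, so the sums are descriptions only.

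Of 8 skeletal muscle markers, 7 were tested (among them *Acta1* and *Myh3*), all 7 were higher in null, and their medians were 0.14, 0.41 and 2.16. Their summed level was 1310 to 1445 in null and 1359 to 1405 in WT on slide 1, 1821 to 1958 against 1489 to 1596 on slide 2, and 4081 to 5070 against 1378 to 1494 on slide 3. *Ckm*, the muscle creatine kinase gene, rose above background in 1 null channel and in 0 WT channels. The 5 of 7 cartilage markers that were tested, such as *Col2a1*, had medians of 0.17, 0.01 and -0.11. Their sums were higher in null on slide 1 (3706 to 3766 against 2979 to 3132 in WT) and lower on slide 3 (3003 to 3167 against 3795 to 4250), both without overlap, and overlapped on slide 2. *Sox5* was above background in no channel. This list bears on *Sox9*, which cartilage also expresses. Of 10 nerve and neural crest markers, whose cells can express *Ret*, 5 were tested (such as *Tubb3*), with medians of 0.05, -0.08 and -0.10 and sums on slide 3 of 1392 to 1497 in null and 1472 to 1572 in WT. *Th* and *Dbh* were above background in no channel. The Y-linked gene *Ddx3y* stood at -0.01, -3.12 and -2.52 on numbers 1 to 3 and *Xist* at 0.20, 2.42 and 1.89, so sex-linked transcripts differed between genotypes on numbers 2 and 3. *Ddx3y*, *Kdm5d* and *Eif2s3y*, all Y-linked, were each well above background in 0 of the 12 null channels and in 8 of the 12 WT channels. *Xist* was so in 12 null and 4 WT channels. The part of tissue make-up and of the sex of the embryos in the values of the members was not tested. Without slide 3 the median of the 8 members was -0.01.

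**Figure D3:**
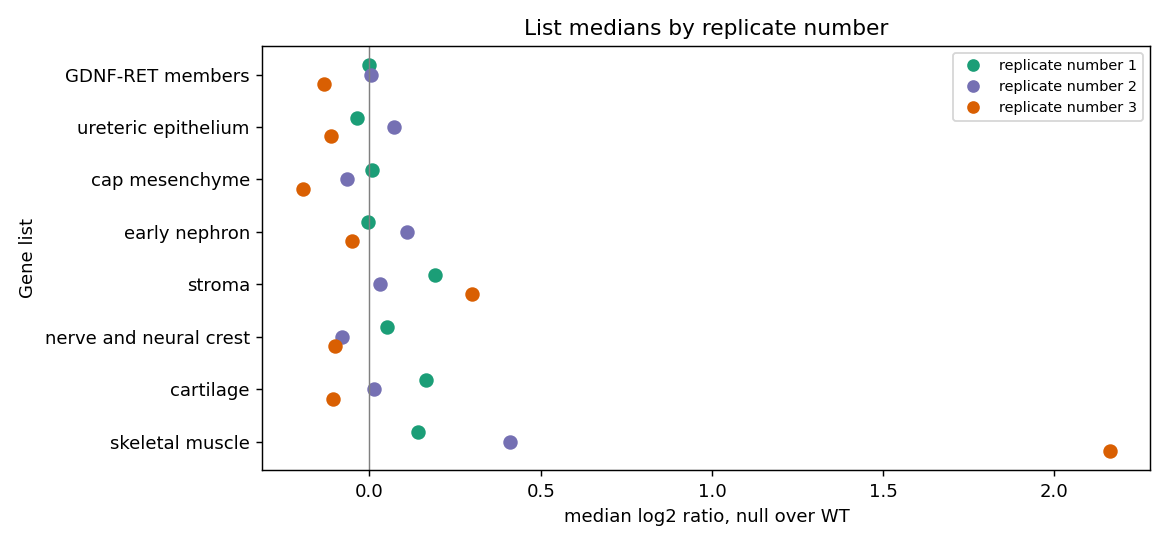
Median log2 ratio of null over WT (horizontal axis) for the members and for each marker list (vertical axis), with 1 point per replicate number. The skeletal muscle point of number 3 lies at 2.16, and the member points lie between -0.13 and 0.00.

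The other genes of the pathway did not pass the test in either direction. By limma at an adjusted p under 0.05, 0 genes of the 5 lists below were called higher and 0 lower, against 0.0392% of all tested probes.

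Among ligands and co-receptors of the GDNF family, 4 of 6 genes were tested, 2 higher and 2 lower, with a median of -0.05. *Gfra3*, the artemin co-receptor gene, stood at 0.09, -0.44 and -0.53 in the null/WT replicates and at 0.09, -0.33 and -0.40 in the WT/null replicates. Both orientations thus gave nearly the same value on each slide, near 0.09 on slide 1 and lower on the others. Its fitted value was -0.25 ± 0.09 (limma adjusted p = 0.675, and 0.0348 with the replicate number as a block, which uses the spread between orientations alone). On the 3 pair means its adjusted p was 0.904, so that call was lost. *Gfra4*, the persephin co-receptor gene, stood at -0.11 ± 0.07 and *Artn*, the artemin gene, at 0.04 ± 0.05. *Gfra2* and *Pspn* were too dim to be tested.

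Of the RAS-ERK and PI3K transducers, 19 of 20 were tested, 9 higher and 10 lower, with a median of -0.01 and a range of -0.15 to 0.06. The smallest p-values were those of *Map2k2*, the gene of the ERK kinase MEK2, at -0.12 ± 0.07, of *Plcg1*, a phospholipase gene, at -0.15 ± 0.08, and of *Frs2*, an adaptor gene, at 0.06 ± 0.04. On number 3, 14 of the 19 were below 0, against 50.8% of all tested genes, and the median was -0.05. This lean was not particular to the transducers. Below 0 on number 3 were also 4 of 4 ligand and co-receptor genes and 10 of 12 bud genes. For the mesenchymal genes it was 14 of 23, and for the targets and feedback genes 5 of 9.

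Of the targets and feedback genes beyond the members, 9 of 11 were tested, 6 higher and 3 lower by the brightest probe, with a median of 0.07. The 6 include *Mmp14*, whose probes disagree in sign (below). With the mean of the probes of each gene the median was 0.04. *Spry2*, a paralogue of *Spry1*, stood at 0.12 ± 0.05 (unadjusted p = 0.0446, limma adjusted p = 0.707). Its replicates were at 0.34, 0.31 and 0.51 in the null/WT orientation and at -0.18, -0.27 and -0.01 in the other, so here too the sign followed the dye. *Dusp6*, an ERK phosphatase gene, stood at 0.07 ± 0.04. *Mmp14*, the gene of a membrane-bound matrix metalloprotease, had the largest value of any gene on these lists by its brighter probe, A_51_P216303, at 0.86 ± 0.38. This came from slide 1, where it stood at 2.02 and 2.74, against -0.27 and 0.29 on slide 2 and -0.12 and 0.50 on slide 3. The other *Mmp14* probe, A_52_P304128, gave -0.33 on slide 1 and -0.12 ± 0.07 over all, so the probes disagree in sign and no direction is given for this gene. With the replicate number as a block, the brighter probe had a limma adjusted p of 0.000512, and on the pair means 0.904.

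Of the transcription factors and receptors that maintain the bud, 12 of 13 genes were tested, 6 higher and 6 lower, with a median of 0.00. *Rara*, a retinoic acid receptor gene, stood at -0.14 ± 0.09 (limma adjusted p = 0.726). Its lowest value (-0.62) was in WT/null replicate 3, against -0.12 to 0.07 in the other replicates. Its probe was well above background in 10 null and 12 WT channels. *Gata3*, a transcription factor gene of the bud, stood at 0.07 ± 0.05 (limma adjusted p = 0.729).

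Of the mesenchymal genes that set where *Gdnf* is made or how the bud receives it, 23 of 25 were tested, 11 higher and 12 lower, with a median of -0.00. *Fgf7*, the gene of a growth factor for bud epithelium, stood at 0.14, -0.07 and 0.24 in the null/WT replicates and at 0.26, 0.21 and 0.19 in the WT/null replicates, higher in 5 of 6. Its fitted value was 0.16 ± 0.05 (unadjusted p = 0.00994, limma adjusted p = 0.594). The *Fgf7* probe was dim, with a mean log2 intensity of 6.62, and well above background in 11 null and 10 WT channels. *Slit2*, whose product restricts the *Gdnf* domain through ROBO2, stood at 0.14 ± 0.06, and its other probe at 0.18 ± 0.05. *Fgf10*, which can act beside GDNF on the bud, stood at -0.13 ± 0.06, with its lowest value (-0.55) in WT/null replicate 3.

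**Figure D4:**
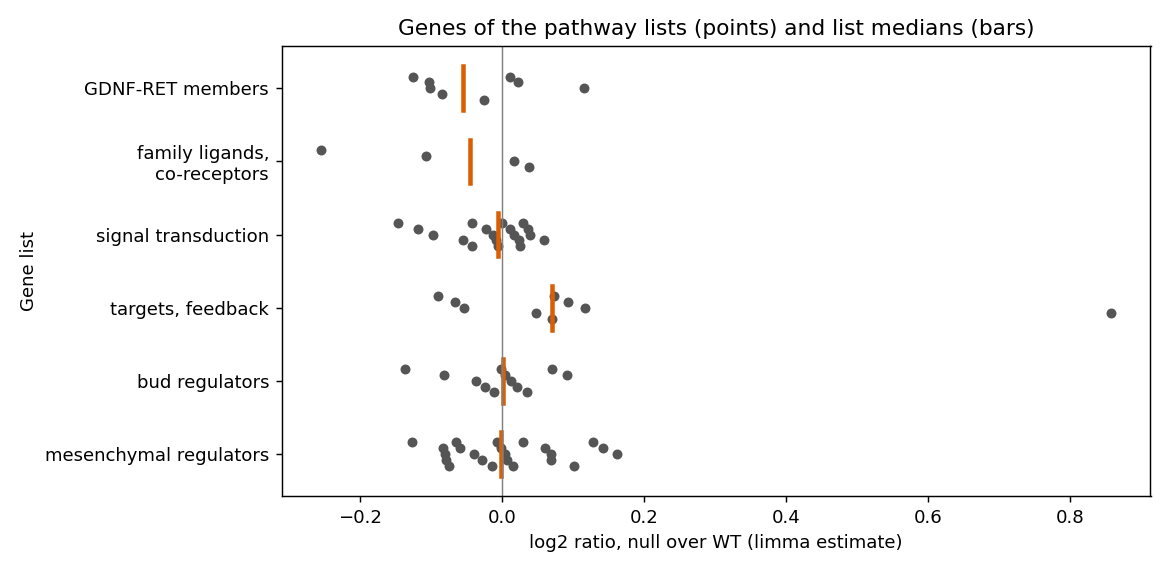
Fitted log2 ratios of null over WT (horizontal axis) for the tested genes of the members and of 5 pathway lists (vertical axis), with 1 point per gene and orange bars at the list medians. The medians lie between -0.06 and 0.07, and the point at 0.86 is the brighter *Mmp14* probe.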

How the data were processed

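Spot and local background intensity was deposited as median pixel values for each dye, with no normalization in those columns per the file headers. The scanner software's log10 ratio of Cy5 over Cy3, also deposited, was made, per the file headers, by Agilent Feature Extraction 10.5.1.1, while the submitters' processing notes name version 6.1. The authors' series value table held log10 ratios. Its columns, read as null over WT, correlated at 0.998 to 0.999 with the scanner's ratios turned that way, with slopes near 1.00, which sets its scale and direction. Its column medians ran from -0.0218 to 0.00645. How entries were left blank in it stays unknown.

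Here, background was corrected with normexp (offset 50), a loess curve per array, fitted with weight 0 on controls and outliers, was taken off the log2 ratios, these spots (101 to 262 outliers per array) were dropped, and spots of a probe were averaged (43379 spots, 41174 probes). Ratios were turned to null over WT and the 2 arrays of a replicate averaged, giving 6 values. Levels per channel come from the same data after quantile normalization of mean intensities (Aquantile). Probes well above background in null or in WT on at least 6 of 12 arrays were tested (22979). limma 3.58.1 in R 4.3.3 fitted a genotype and a dye term, with Benjamini-Hochberg adjustment over all tested probes and a threshold of 0.05. Alternatives changed the background correction, centring, filter, dye term, choice of probe and arrays included. The brightest tested probe stands for a gene. Probe accessions were matched to RefSeq genes of GRCm38.p6 (25097 of 41174 probes named). The array's header names another build, so no probe position is given. The arrays' number limits the precision: the median SE was 0.0506. Well above background were 40.5% to 59.4% of probes per channel, and duplicate arrays correlated at 0.711 to 0.923, lowest in WT/null replicate 3.

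Replicates with the same number share a slide. After removal of orientation means they correlated at 0.587, 0.517 and 0.413, so the numbers were taken to pair the samples, and the replicate number was also fitted as a block. The named genes are every member, and in each pathway list up to 3 genes with the smallest p plus any called; some named results are not reported here. Cell type markers are given as list counts and medians with the defining markers by name. The members and lists were chosen with earlier results of these data known.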

Additional observations from a re-analysis of the deposited data

Results flagged for a closer look

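The dimmer *Sox8* probe, A_52_P269672, stood at -0.56 in WT/null replicate 3, far from the other 5 replicates (-0.07 to 0.08). On the 2 arrays of that replicate it stood at -0.79 and -0.33, and on both its null channel was not well above background. The *Sox9* probe A_52_P214630 stood at -0.087 in the same replicate, against 0.0005 to 0.04 in the other 5, and neither channel was well above background on either array of that replicate. Both are ratios of signal at or near background and give no fold. Both came out of a test of the extreme value against the range of 6, which chance trips for about 1 in 20 groups, and 13 probes were looked at. The brightest *Sox9* probe gave opposite signs in the 2 dye orientations, with a dye term of -0.41 ± 0.08 (limma adjusted p = 0.0190). The causes were not tested.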

How the results depend on the processing

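No member passed the threshold under any of the 21 alternatives run as a fit, by limma. The number of arrays and of slides limits what the design can show, and *Ret* is limited by signal over background. *Sox8* stayed below 0 (-0.31 to -0.02) and *Sox9* above 0 (0.05 to 0.30) under all 22 alternatives. Not all of these could move the sign. The block, pair-mean and random-block fits, the fit without a dye term and both filter settings left the 2 fitted values unchanged. The replicate number as a block, which keeps only the spread between orientations as error, gave 295 called probes against 9, and 2 pathway genes, *Gfra3* and *Mmp14*, against 0. Alternatives added after seeing the data were the 3 pair means (4 called) and the number as a random block (9 called), and both left 0 pathway genes called. Among the members the block changed no call. The count of called probes was 5 to 12 without each replicate in turn, 3 with slide 2 left out, 62 with slide 3 left out and 15 with 1 array, the first of WT/null replicate 3, left out.

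These values changed sign. With median centring *Gfra1* stood at 0.079, *Wnt11* at 0.081, *Etv4* at 0.069 and *Etv5* at 0.13, and the median of the members moved to 0.10. With the scanner's ratio *Gdnf* stood at -0.025 and *Spry1* at -0.0050, and with the series value table at -0.026 and -0.0051. With the mean of its probes *Etv5* stood at 0.00065. Without slide 3 *Gdnf* stood at -0.025, *Wnt11* at 0.00076, *Etv4* at 0.043, *Etv5* at 0.043 and *Spry1* at -0.023. With the first array of WT/null replicate 3 left out, *Gdnf* stood at -0.041. Leaving out each replicate put *Gdnf* between -0.043 and 0.076, *Etv5* between -0.059 and 0.022 and *Spry1* between -0.0079 and 0.033.

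The number of probes that differed between replicate numbers was 341. It was 149 without background correction, 151 with the scanner's ratio, 132 with the series value table, 171 without the filter on dim probes, 55 with the first array of each replicate, 739 with the stricter filter, 1548 without that same array and 11447 with median centring. The range of *Etv4* over the numbers passed with the stricter filter (0.57), without that array (0.58) and with median centring (0.66). *Wnt11* passed without that array (0.39) and *Gfra1* with median centring (0.53), as did *Spry1* and *Sox9* (adjusted p = 0.00180 and 0.0115). The cause was not tested.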
